A study of Danio rerio with 4 samples.

Results

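Dense clusters of accessible chromatin are stretches of the genome in which open sites lie close together instead of standing alone. They were found here by joining the peak list deposited for embryos injected with an actl6a morpholino and the list deposited for control embryos into 29278 merged peaks on chromosomes 1 to 25, with chromosome 4 taken over its first 30 Mb. Merged peaks no more than 12.5 kb apart were then chained, and a chain of 4 or more peaks was called a cluster. Of 20152 chains, 783 (3.89%) were clusters, and they held 3801 of the merged peaks (13.0%). The other chains were 14469 isolated peaks, 3692 pairs and 1208 chains of 3.

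ATAC-seq uses a transposase that inserts sequencing adapters where the chromatin is open, and it was run on cells of the pronephric duct, the tubule of the embryonic zebrafish kidney. The actl6a group (2 libraries, genotype label actl6a knockdown) came from embryos given a translation-blocking morpholino against actl6a, and the control group (2 libraries, genotype label WT) from embryos given a standard control morpholino. Both groups carried the transgene Na, K-ATPase alpha1A4:GFP, also named Tg(atp1a1a.4:EGFP) by the submitters, both were injected at the 1-cell stage, and both were collected at 30 hours post fertilization. Duct fragments from 15 embryos were picked by their fluorescence, and 10000 to 20000 pooled cells entered a library, so that a smaller share of cells with an open site and less opening per cell cannot be told apart.

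Actl6a is a subunit of the SWI/SNF (BAF) chromatin remodelling complexes, which use ATP to slide or evict nucleosomes and are known for keeping enhancers and promoters accessible. Dense groups of open sites often mark developmental genes with many enhancers, genes packed close together, or enhancer clusters that give a tissue its identity. A cluster can therefore be described at separate levels, namely its peaks, the chromatin in the gaps between them, and the flanks outside it. No annotation of the build GRCz11 was used here, so clusters are given by position alone, and the labelled tissue was not checked against markers.

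Signal below is the mean coverage of a library over the bases in question divided by that library's mean over chromosomes 1 to 25, so that 1 is the genome mean. If the tracks are RPKM per 50 bp bin, they held 148 and 165 M reads in the actl6a libraries and 117 and 136 M in the control libraries (M for mega). Bases without coverage made up 5.48% and 4.65% of the chromosomes in the actl6a libraries, against 8.20% and 6.62% in the control libraries. Both actl6a tracks were thus the deeper ones, and the part of depth in the results below was not tested.

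Most clusters were small. There were 429 clusters of 4 peaks, 201 of 5, 73 of 6, 39 of 7, 21 of 8, 10 of 9 and 10 of 10 or more, up to 14. A cluster spanned a median of 23950 bp from its first to its last peak, with quartiles of 18447 and 29483 bp and a range of 4764 to 96407 bp. Peaks covered a median of 11.8% of the span (range 4.01% to 68.9%), so that a typical cluster was mainly gap: a median of 2714 bp of peaks and 21104 bp of gaps. The closest neighbours in a cluster lay a median of 1913 bp apart and the most distant 9713 bp. All clusters together spanned 19.7 Mb, or 1.52% of the bases analysed.

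**Figure D1:**
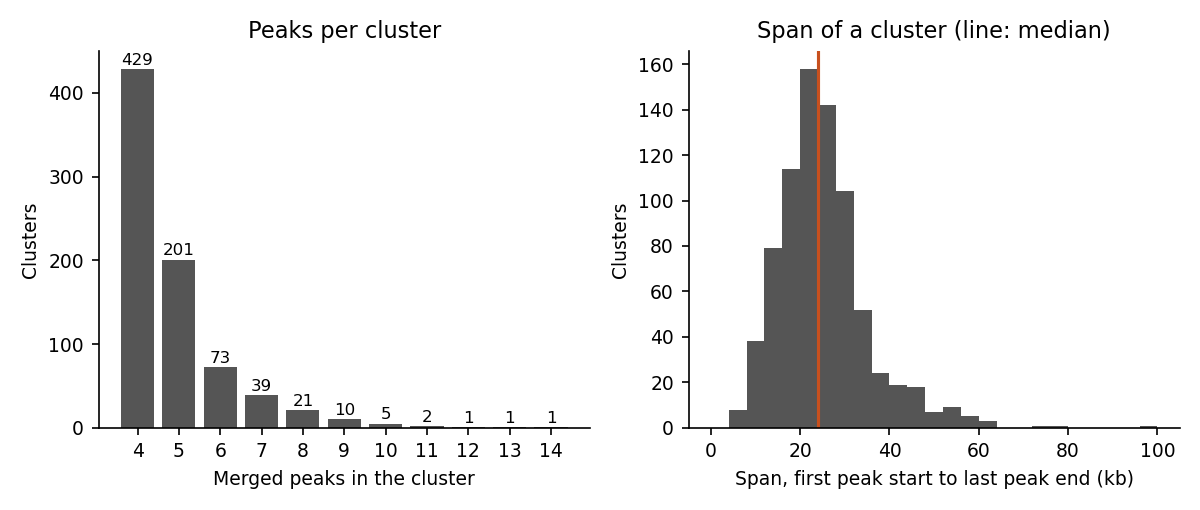
Number of clusters by merged peaks per cluster (left) and by span in kb (right, 4 kb bins, line at the median). Clusters of 4 peaks were the most frequent, with 429 of 783, and the longest cluster spanned 96407 bp.

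Clusters lay on every chromosome analysed. Their number ran from 18 on chromosome 22 to 51 on chromosome 3. Per 10 Mb there were 4.18 on chromosome 14 at the low end, and 8.05 on chromosome 19, 8.14 on chromosome 3 and 9.67 on the analysed stretch of chromosome 4 at the high end. The ends of chromosomes held many: 109 clusters (13.9%) began or ended within 1 Mb of an end (for chromosome 4, of its start), in 3.78% of the bases analysed, where 6.93% of the merged peaks lay. Gap signal in these 109 clusters had medians of 1.196 and 1.196 in the actl6a libraries, against 1.200 and 1.228 in the control libraries. In the other 674 clusters the medians were 0.993 and 0.977 in the actl6a libraries, against 0.994 and 0.985 in the control libraries.

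Clusters were mixtures of the lists. Of the 3801 peaks in clusters, 554 (14.6%) were in the actl6a list only, 1521 (40.0%) in the control list only and 1726 (45.4%) in both. Among isolated peaks the shares were 20.4%, 52.4% and 27.2% in the same order. The share in both lists was higher the more peaks a chain held, with 33.2% in pairs, 39.4% in chains of 3, 43.0%, 44.0% and 46.3% in clusters of 4, 5 and 6, and 53.4% in clusters of 7 or more. Since each group has 1 list of unstated depth and pooling, these shares have no replicate error.

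Within single clusters, 278 held peaks of all 3 kinds. In 24 every peak was in both lists, in 16 every peak was in the control list only, and in 1 every peak was in the actl6a list only. Control-only peaks outnumbered actl6a-only peaks in 542 clusters and were fewer in 115. Counting each list by itself, 226 clusters held at least 4 actl6a peaks and 542 at least 4 control peaks, 167 held both, and 182 reached 4 only once the lists were merged. With fewer peaks in the actl6a list overall (15248, against 24109 in the control list), these counts describe the lists, not an effect on clusters.

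A set of 31 clusters stood apart from the rest and is given first. Their mean gap signal over the 4 libraries was at least 2, a limit chosen after the values were seen. They lay on 13 chromosomes, and their median gap signal was 6.65 and 6.36 in the actl6a libraries, against 7.10 and 6.70 in the control libraries. Even the flanks were high, at 4.40 and 4.54 in the actl6a libraries and 4.48 and 4.47 in the control libraries. Flank signal was 2 or more in every library in 17 of the 31 and in 0 of the other 752 clusters.

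The 3 clusters with the highest gap signal differed in the ratio of peak to gap signal. In chr16:15655401-15670558, with 5 peaks that were all in both lists, gap signal was 116 and 113 in the actl6a libraries, against 120 and 116 in the control libraries, and peak signal was 151 and 148 against 157 and 147. Gap signal in chr24:12405492-12415754 (4 peaks) was 113 and 111 in the actl6a libraries, against 116 and 113 in the control libraries, and peak signal was 111 and 112 against 110 and 103. In chr10:16794056-16839760 (9 peaks) gap signal was 73.3 and 77.8 in the actl6a libraries, against 80.8 and 84.2 in the control libraries, and peak signal was 258 and 281 against 266 and 298. Over the libraries, peak signal was thus 1.27 to 1.31 times gap signal in the first of these clusters and 0.911 to 1.003 times in the second. In the third it was 3.30 to 3.62 times gap signal. The 31 clusters spanned 0.577 Mb with their gaps and made up 0.592% of the bases in merged peaks. They held 11.1% and 13.3% of all signal in merged peaks in the actl6a libraries, against 9.30% and 10.9% in the control libraries. Sums of signal therefore rest partly on them and are given below with and without them. Without chains of such gap signal, the median log2 difference of the clusters was −0.36 in peaks and −0.0039 in gaps, against −0.35 and −0.0065 with them.

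Peak signal over the 783 clusters was lower in both actl6a libraries than in both control libraries. The median cluster had a peak signal of 2.88 and 2.39 in the actl6a libraries, against 3.77 and 3.21 in the control libraries. The means were 2.63 ± 0.350 and 3.49 ± 0.392 (SD, n = 2 each), a difference of −0.857 with p = 0.33 in a two-sided exact permutation test over libraries. That is the smallest p that 2 libraries against 2 can give, so no library-level difference here could pass 0.05. Isolated peaks had lower medians in the same order of libraries, with 2.02 and 1.82 in the actl6a libraries, against 2.53 and 2.28 in the control libraries. All these peaks were called on the same libraries, and clusters held 1521 control-only peaks but 554 actl6a-only peaks. With signal taken over shared peaks alone, the median log2 difference was −0.36 over 705 clusters and −0.31 over all 7501 chains with such peaks. The part of peak calling in these differences was not tested.

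Gap signal, taken by construction over bases called as a peak in neither group, differed much less between the groups on this scale. Its median was 1.008 and 0.999 in the actl6a libraries, against 1.013 and 1.007 in the control libraries, a difference of −0.0067 (exact permutation p = 0.667), and the groups overlapped. The flanks, taken from 0.5 to 12.5 kb outside each end and free of peaks by construction, had medians of 0.981 and 0.978 in the actl6a libraries and 0.952 and 0.958 in the control libraries. Flank signal was thus slightly higher in the actl6a group, by 0.0248 with p = 0.33 in the exact permutation test. All merged peaks held 4.00% and 3.55% of the signal in the actl6a libraries, against 4.97% and 4.42% in the control libraries. Division by the library mean therefore sets the signal outside peaks near 1, and higher where peaks hold less. It averaged 0.973 and 0.977 in the actl6a libraries, against 0.963 and 0.968 in the control libraries. With libraries scaled outside peaks instead, the median log2 difference in gaps was −0.0158, against −0.0065. The part of this scaling in the flank values was not tested. The ratio of peak to gap signal had medians of 2.75 and 2.35 in the actl6a libraries, against 3.59 and 3.09 in the control libraries (p = 0.33, exact permutation test).

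**Figure D2:**
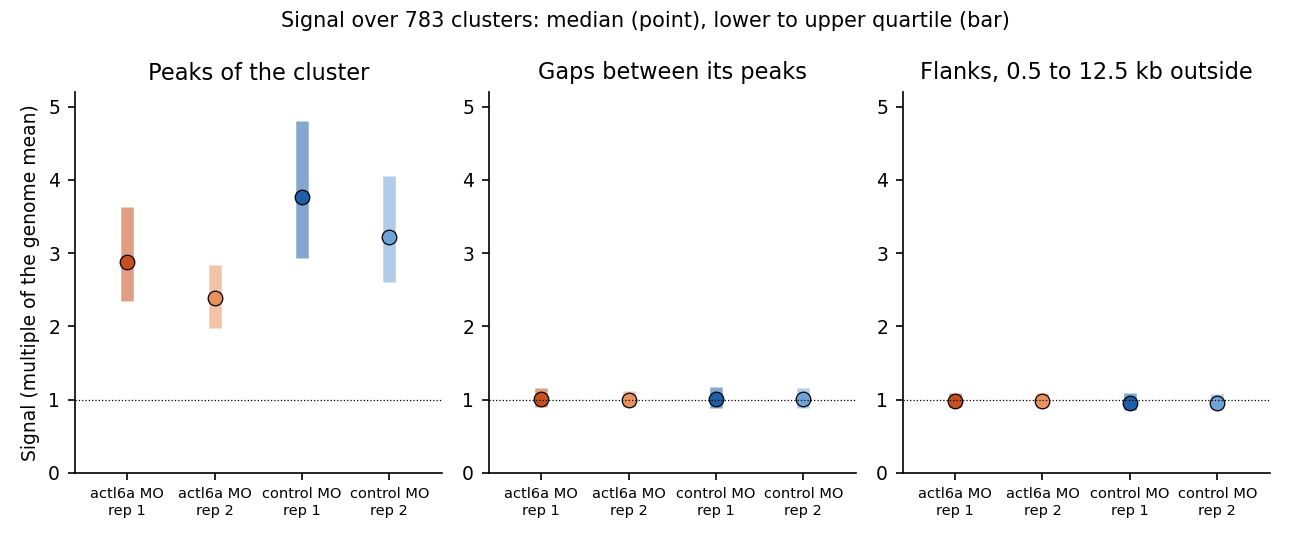
Signal (multiple of the genome mean) in the peaks, gaps and flanks of the 783 clusters in each library. Points are medians, bars run from the lower to the upper quartile over clusters, and the dotted line is the genome mean. Peak medians were 2.88 and 2.39 in the actl6a libraries, below 3.77 and 3.21 in the control libraries, and gap medians lay near 1 in all 4.

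As a share of all signal on the chromosomes, cluster peaks held 0.950% and 0.883% in the actl6a libraries, against 1.134% and 1.046% in the control libraries. The means were 0.917% ± 0.0473 and 1.09% ± 0.0617 (SD, n = 2 each; p = 0.33, exact permutation test). The gaps of the same clusters held 2.18% and 2.19% in the actl6a libraries, against 2.25% and 2.26% in the control libraries (p = 0.33, exact permutation test). So the gaps together held more signal than the peaks in every library, over many more bases. Without the 31 clusters of high gap signal, the peaks held 0.508% and 0.411% in the actl6a libraries, against 0.672% and 0.563% in the control libraries, and the gaps 1.300% and 1.277% against 1.306% and 1.296%. The groups then stayed apart in the peaks and overlapped in the gaps, so the separation in the gap share rested on the 31 clusters. Among all signal in merged peaks, clusters held 23.8% and 24.9% in the actl6a libraries, against 22.8% and 23.7% in the control libraries. The other 752 clusters held 12.7% and 11.6% of this same total in the actl6a libraries, against 13.5% and 12.7% in the control libraries. The total still included the 31 clusters, and shares of a total without them were not computed.

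Bases without coverage were less frequent in the actl6a gaps. Their median share per cluster was 3.47% and 2.76% in the actl6a libraries, against 5.99% and 4.81% in the control libraries (p = 0.33, exact permutation test). The deeper libraries had the lower shares here, as they had over the whole chromosomes, and the part of depth in this difference was not tested.

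The gaps were not uniform. Within 250 bp of a peak edge, the median gap signal over clusters was 1.33 and 1.21 in the actl6a libraries, against 1.45 and 1.39 in the control libraries. From 500 to 1000 bp it was 0.944 and 0.929 in the actl6a libraries, against 0.923 and 0.938 in the control libraries, and from 2 to 4 kb it was 1.001 and 1.006 against 0.998 and 0.994. The order of the groups seen in the peaks was thus present next to the peaks and not beyond 250 bp. Beside isolated peaks, signal within 250 bp was 1.15 and 1.1 in the actl6a libraries, against 1.19 and 1.15 in the control libraries. From 500 to 1000 bp it was 0.860 and 0.869 in the actl6a libraries, against 0.823 and 0.833 in the control libraries, so that every library was lower beside isolated peaks than in the gaps of clusters at the same distance.

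Gaps were compared with the flanks of their own cluster as well. Gap signal was above flank signal in 447 and 429 of 783 clusters in the actl6a libraries, against 468 and 473 in the control libraries, and in every library in 268. Counting gap bases at least 1000 bp from a peak, it was above in 395 and 406 of 781 clusters in the actl6a libraries, against 398 and 405 in the control libraries. Away from the peaks, gaps were thus brighter than flanks in about as many clusters as they were dimmer.

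**Figure D3:**
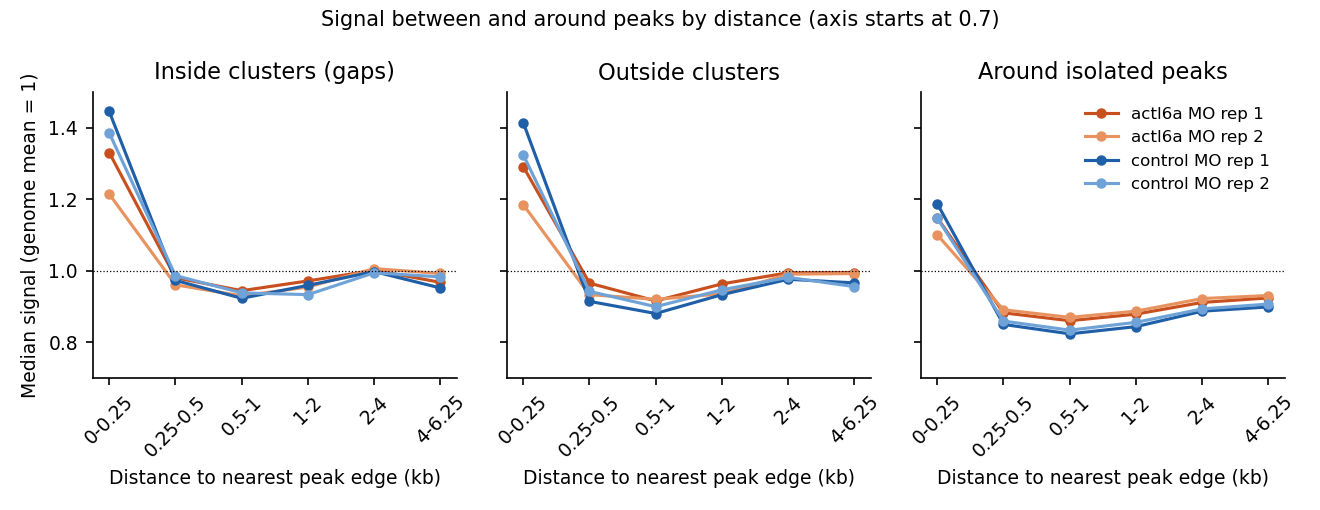
Median signal (multiple of the genome mean) by distance in kb to the nearest peak edge, in the gaps of clusters (left), outside clusters (middle) and around isolated peaks (right), for each library. The vertical axis starts at 0.7. Within 0.25 kb the actl6a libraries had 1.33 and 1.21 in gaps, against 1.45 and 1.39 in the control libraries, and the lines lie close together beyond that distance.

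Larger clusters had brighter peaks. In actl6a replicate 1 the median peak signal was 2.02 in isolated peaks and 2.81, 2.88, 3.04 and 3.24 in clusters of 4, 5, 6 and 7 or more peaks, and in actl6a replicate 2 it was 1.82 and 2.29, 2.35, 2.46 and 2.68. In control replicate 1 it was 2.53 and 3.56, 3.78, 4.11 and 4.47, and in control replicate 2 it was 2.28 and 3.09, 3.24, 3.44 and 3.69. The order by size was the same in every library. Pairs lay between isolated peaks and clusters of 4, at 2.29 and 1.98 in the actl6a libraries and 2.84 and 2.53 in the control libraries. Gap signal also had higher medians in clusters of 7 or more peaks (1.07 and 1.05 in the actl6a libraries, against 1.09 and 1.08 in the control libraries) than in pairs (0.938 and 0.937 against 0.930 and 0.921). The flanks had the same order. Flank medians were 1.03 and 1.01 in the actl6a libraries and 1.06 and 1.02 in the control libraries for 7 or more peaks. For pairs they were 0.935 and 0.941, and 0.912 and 0.919. Clusters were chosen by their number of peaks, but the peaks were called on the signal of these same libraries. Size and signal are therefore not independent, and these values are a description.

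Clusters were then compared with limma on log2(signal + 0.5), fitted over all chains, with a Benjamini-Hochberg adjusted p under 0.05 as the limit. For peak signal, 0 of 783 clusters passed, and 0 of all 20152 chains (0.0%), with a smallest adjusted p among clusters of 0.0996. At an unadjusted p under 0.05, 61 of 783 clusters were lower and 2 higher in the actl6a group. Of all 20152 chains, 3790 (18.8%) were lower and 831 (4.12%) higher, so both shares were smaller in clusters than in all chains. The median standard error of a cluster's log2 difference was 0.291, about as large as the typical difference itself. The labels name the libraries as separate samples and do not say that they came from separate clutches or days, so p-values measure the spread between these libraries. For peaks in limma this spread was mostly pooled over all chains (20.3 prior against 2 residual degrees of freedom). The SE given for a cluster is therefore not the spread of that cluster alone.

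The differences in peak signal pointed mostly to lower values in the actl6a group. The log2 difference was below 0 in 733 of 783 clusters (93.6%), against 78.7% of all chains, with a range of −0.87 to 1.02. Its median was −0.35 over clusters and −0.35 over all chains, so the typical difference was about as large in clusters as in all chains. Without actl6a replicate 1 the median over clusters was −0.49, and without actl6a replicate 2 it was −0.22. Scaling the libraries to equal medians over all chains moved the median over all chains to −0.08 and that of the clusters to −0.07, so a difference relative to other peaks is close to 0 in the typical cluster. In 544 clusters (69.5%) the higher actl6a library was still below the lower control library, against 49.5% of all chains. In 13 (1.66%) the groups were apart in the other direction, against 10.1% of all chains. Of all chains, 71.8% are isolated peaks, and 20.4% of those were in the actl6a list only, while 1 cluster held only such peaks. Peaks in a single list were chosen on these libraries, and the part of this in the shares above was not tested.

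The share of clusters with such non-overlapping lower values was 63.4%, 75.1%, 78.1% and 80.0% for 4, 5, 6 and 7 or more peaks, against 46.3% of isolated peaks. The median log2 difference moved less over the same classes, with −0.34, −0.35, −0.40 and −0.37. The mean of a cluster ran over a median of 2714 bp of peaks, while the median isolated peak was 516 bp wide. The parts of this width and of the mix of lists in the shares were not tested. Single chromosomes had median differences of −0.45 to −0.29 in the peaks of their clusters and of −0.06 to 0.03 in the gaps.

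The gap comparison gave differences in both directions. For gap signal, 0 of 783 clusters passed the limit in limma, and 0 of the 5683 chains of 2 or more peaks (0.0%), with a smallest adjusted p of 0.585. At an unadjusted p under 0.05, 8 of 783 clusters were lower and 9 higher, against 187 of 5683 chains (3.29%) each way. Both shares were smaller in clusters than in all such chains. The log2 difference was below 0 in 412 clusters (52.6%), its median was −0.0065, and its median standard error was 0.0902, smaller than that of the peaks. Gap signal was lower in the actl6a group without overlap in 186 clusters (23.8% of clusters, where 17.6% of all such chains had this order). It was higher without overlap in 141 (18.0% of clusters, where 19.8% of chains had this order).

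Peaks and gaps were then joined in a contrast, the log2 peak signal minus the log2 gap signal of a cluster. In this contrast 0 of 783 clusters passed in limma, and 0 of 5683 chains (0.0%), with a smallest adjusted p of 0.114. At an unadjusted p under 0.05, 107 of 783 clusters were lower in the actl6a group and 1 was higher. Of 5683 chains, 1243 (21.9%) were lower and 65 (1.14%) higher, so both shares were smaller in clusters. The contrast was lower in the actl6a group without overlap in 519 clusters (66.3% of clusters, where 54.0% of chains had this order) and higher in 18 (2.30% of clusters, where 4.59% of chains had this order). The median difference was −0.34 over clusters and −0.33 over all such chains.

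The order of the groups in the gaps was also counted in the clusters with lower peaks. These are 69.5% of all clusters, so their shares cannot lie far from those of all clusters. Of the 544 clusters with non-overlapping lower peak signal, 133 (24.4%) also had non-overlapping lower gap signal, against 23.8% of all clusters, and 86 (15.8%) had non-overlapping higher gap signal, against 18.0% of all clusters. Among all chains of 2 or more peaks with lower peak signal, the gaps were lower in 19.1% and higher in 18.9%. Peak, gap and flank were all lower without overlap in 36 clusters (4.60%), against 2.11% of all chains of 2 or more peaks. They were all higher in 5 (0.639%), against 0.563% of such chains. Over all clusters the log2 differences in peaks and in gaps correlated at r = 0.251, and at 0.282 without the clusters of high gap signal. These values describe the clusters, and no link between peaks and gaps was tested. Log2 differences under −0.3 were found in the peaks of 480 clusters (61.3%), where 55.4% of all chains had them, and in the gaps of 7 (0.894%), where 3.11% of chains of 2 or more peaks had them. Differences over 0.3 were found in the peaks of 3 clusters (0.383%), where 11.3% of all chains had them. In the gaps they were found in 3 (0.383%), where 2.38% of chains of 2 or more peaks had them. All chains are mostly isolated peaks, often from a single list, and the part of this in the peak shares was not tested.

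**Figure D4:**
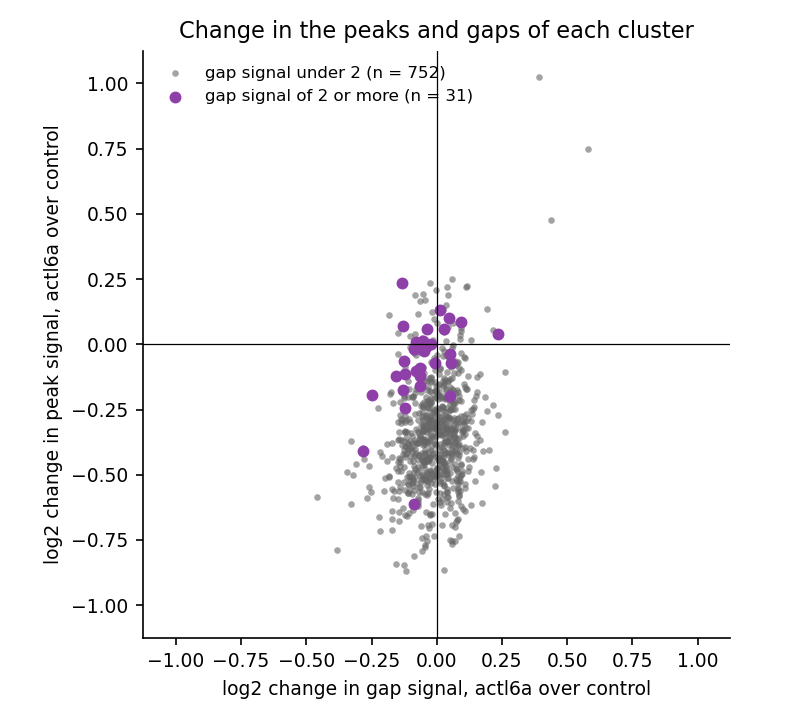
Log2 difference (actl6a over control) in the gaps (horizontal axis) and in the peaks (vertical axis) of each of the 783 clusters. Purple points are the 31 clusters with a gap signal of 2 or more. Peak differences ran from −0.87 to 1.02 and were below 0 in 733 clusters, while gap differences ran from −0.46 to 0.58 and lay on both sides of 0.

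Most clusters held peaks of both directions. In 325 clusters every peak had a lower mean in the actl6a group, in 3 none did, and in 455 peaks with lower and with higher means lay side by side. Median log2 differences over cluster peaks were 0.34 for peaks in the actl6a list only and −0.56 for peaks in the control list only. A peak found in a single list was chosen on these libraries for being high there, so these values are a description. The 1726 peaks in both lists had a median of −0.34, and 1534 of them (88.9%) were lower. Isolated peaks had medians of 0.46 in the actl6a list only, −0.55 in the control list only and −0.28 in both lists. Of 521 clusters with at least 2 such shared peaks, all shared peaks were lower in 382, none was in 6, and 133 held both directions.

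Shared peaks inside clusters were brighter than shared isolated peaks. Their median signal was 3.69 and 2.86 in the actl6a libraries, against 4.73 and 3.87 in the control libraries. Isolated shared peaks had 2.95 and 2.39 in the actl6a libraries, against 3.66 and 3.08 in the control libraries. On the log2 scale the excess of clusters over isolated peaks, taken over peaks in both lists, was 0.28 and 0.22 in the actl6a libraries, against 0.33 and 0.29 in the control libraries, and it differed between the groups by −0.06 (p = 0.33, exact permutation test). Over all peaks the excess was 0.43 and 0.31 in the actl6a libraries, against 0.49 and 0.42 in the control libraries. This difference, −0.08 with p = 0.667 in the exact permutation test, overlapped between groups and had the opposite sign, 0.01, when clusters were built from the control list alone. Built from the actl6a list alone, it was −0.29 without overlap, with 0.44 and 0.29 in the actl6a libraries, against 0.69 and 0.61 in the control libraries.

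The cluster with the most peaks was chr23:10268051-10364457, with 14 peaks over 96407 bp, of which 2 were in the actl6a list only, 4 in the control list only and 8 in both. Its peak signal was 2.85 and 2.46 in the actl6a libraries, against 4.07 and 3.50 in the control libraries. Gap signal was 0.925 and 0.901 in the actl6a libraries, against 0.962 and 0.977 in the control libraries. The groups did not overlap in peaks or gaps, 13 of the 14 peaks had the lower mean in the actl6a group, and the log2 difference in peaks was −0.44 ± 0.288 (SE, adjusted p = 0.325, limma). Its neighbours in size were chr13:49421856-49501601 with 13 peaks and chr11:6584637-6658806 with 12.

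In the 13-peak cluster peak signal was 4.52 and 3.35 in the actl6a libraries, against 6.05 and 4.49 in the control libraries, so the groups overlapped. In the 12-peak cluster it was 2.79 and 2.17 in the actl6a libraries, against 3.29 and 2.96 in the control libraries, without overlap. Of the pair with 11 peaks, chr15:28262064-28311906 had 6 control-only peaks, 5 shared peaks and no actl6a-only peak. All 11 of its peaks had the lower mean in the actl6a group, with peak signal of 3.07 and 2.71 in the actl6a libraries, against 5.48 and 4.15 in the control libraries. Its log2 difference of −0.64 ± 0.288 (SE, adjusted p = 0.197, limma) was the lowest among the 10 clusters with 10 or more peaks.

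The other cluster of 11 peaks, chr16:36433673-36454544, was of another kind. It held 5 actl6a-only and 6 shared peaks within 20872 bp and belonged to the 31 with high gap signal. Peak signal was 12.0 and 11.8 in the actl6a libraries, against 13.0 and 12.7 in the control libraries, and gap signal was 6.65 and 6.36 against 7.10 and 6.70. The 5 peaks present in the actl6a list alone thus lay in a cluster whose mean signal was no higher in the actl6a libraries. Its log2 difference in peaks was −0.10 and turned to 0.21 when libraries were scaled to equal medians over all chains.

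The 5 clusters with 10 peaks were chr9:18724312-18782178, chr2:41822519-41877008, chr1:19371450-19418985, chr6:23959081-24005492 and chr7:5903874-5937932. Their log2 differences in peaks ran from −0.42 to −0.29, and 7 to 10 of the 10 peaks in each had the lower mean in the actl6a group. Peak signal in the cluster on chromosome 1 was 2.73 and 2.46 in the actl6a libraries, against 3.84 and 3.46 in the control libraries. In the cluster on chromosome 9 it was 3.23 and 2.28 in the actl6a libraries, against 4.09 and 2.90 in the control libraries, with overlap. The cluster on chromosome 7 had gaps above the genome mean, with 1.51 and 1.70 in the actl6a libraries and 1.64 and 1.62 in the control libraries, while its flanks were below it.

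Among clusters whose groups did not overlap, chr3:8800450-8825361 had the largest positive difference. It was the cluster whose 5 peaks were all in the actl6a list only. Its peak signal was 3.69 and 2.92 in the actl6a libraries, against 1.40 and 1.32 in the control libraries, a log2 difference of 1.02 ± 0.294 (SE, adjusted p = 0.0996, limma). Here the gaps had higher values too, with 1.85 and 1.64 in the actl6a libraries, against 1.27 and 1.15 in the control libraries, and so did the flanks, with 1.91 and 1.95 against 1.24 and 1.31. From 12.5 to 50 kb outside, signal was 1.21 and 1.20 in the actl6a libraries, against 0.959 and 0.971 in the control libraries, from 50 to 100 kb it was 1.20 and 1.19 against 0.989 and 1.02, and from 100 to 200 kb it was 0.988 and 0.941 against 0.943 and 0.884. The higher signal was thus spread over the neighbourhood of the cluster and not limited to its peaks.

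The next 2 by size also had higher signal in peaks, gaps and flanks. Their log2 differences in the peak-to-gap contrast were smaller, at 0.17 and 0.037, against 0.63 in chr3:8800450-8825361. In chr8:12901542-12925835 (4 peaks, 3 actl6a-only and 1 shared) peak signal was 5.44 and 4.58 in the actl6a libraries, against 2.90 and 2.64 in the control libraries, a log2 difference of 0.75 ± 0.284 (SE, adjusted p = 0.152, limma). Its gaps had 2.46 and 2.53 in the actl6a libraries, against 1.45 and 1.56 in the control libraries, the largest gap difference of any cluster at 0.58 on the log2 scale. In chr2:20793788-20814860, also with 3 actl6a-only peaks and 1 shared peak, peak signal was 3.18 and 3.06 in the actl6a libraries, against 3.04 and 1.42 in the control libraries. Its log2 difference in peaks was 0.47 ± 0.317 (SE, adjusted p = 0.336, limma). Control replicate 1 was close to the actl6a libraries there and control replicate 2 far below them, while the gaps were apart, at 1.52 and 1.68 in the actl6a libraries and 1.06 and 1.04 in the control libraries. Beyond 50 kb, both neighbourhoods were within 0.1 of each other in the means of the groups.

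Smaller positive differences were found in chr7:668282-692928 (0.25) and chr11:42105849-42120300 (0.23). Their gaps were closer between groups, with log2 differences of 0.06 and −0.03: gap signal was 1.1 and 1.07 in the actl6a libraries, against 1.06 and 0.991 in the control libraries for the cluster on chromosome 7, and 1.80 and 1.99 against 1.86 and 2.02 for that on chromosome 11. The adjusted p was 0.569 and 0.590 for their peaks in limma.

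**Figure D5:**
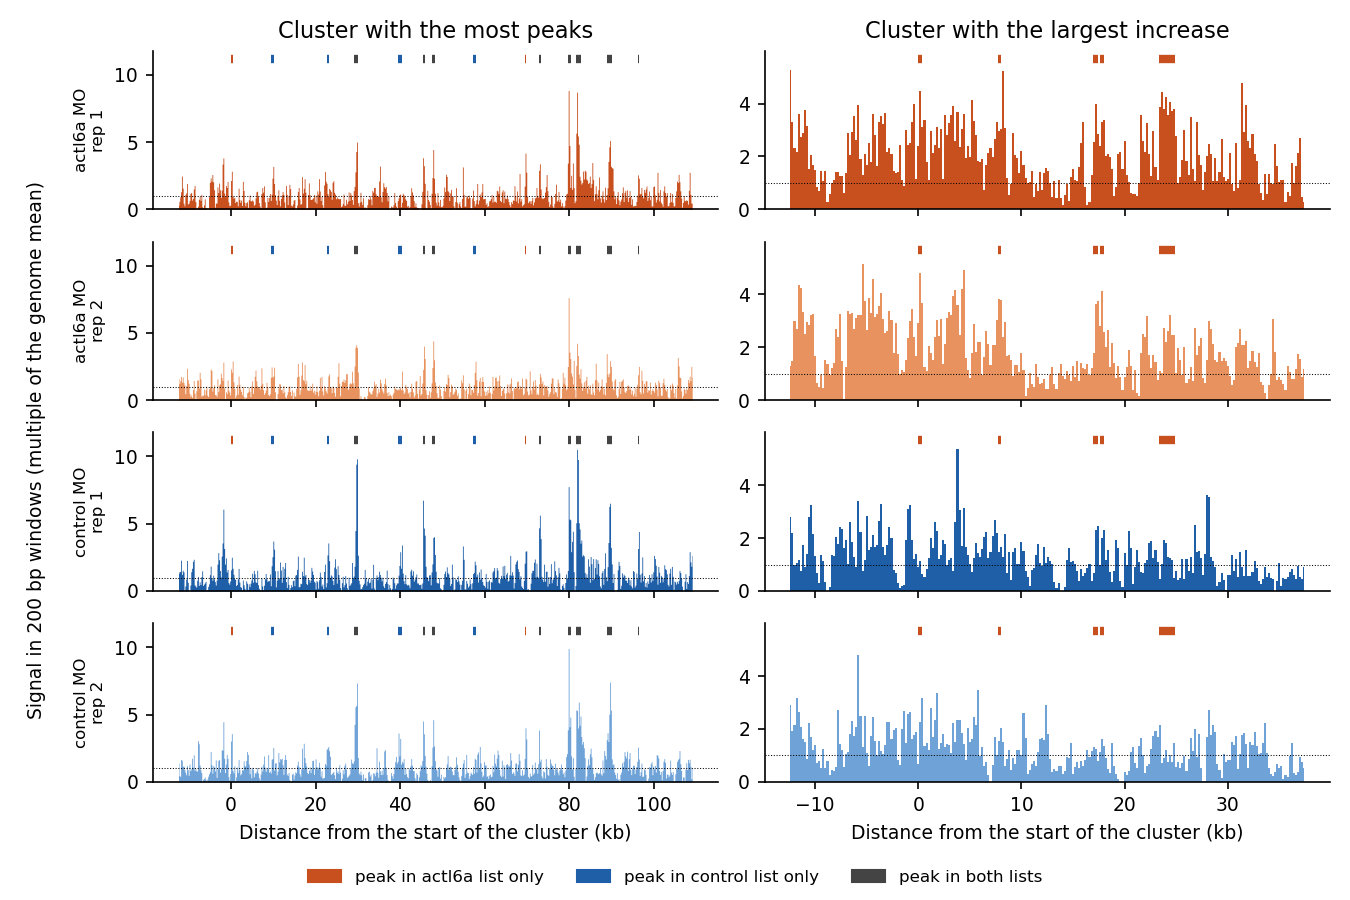
Signal (multiple of the genome mean, 200 bp windows) in each library across the cluster of 14 peaks (left) and the cluster with the largest positive difference (right), by distance in kb from the start of the cluster. Bars above each track mark merged peaks by list. Mean peak signal was 2.85 and 2.46 in the actl6a libraries, against 4.07 and 3.50 in the control libraries (left), and 3.69 and 2.92 against 1.40 and 1.32 (right), where gaps and flanks were higher as well.

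The 5 largest negative differences were larger in the peaks than in the gaps. In chr3:14092120-14103780, with 1 control-only and 3 shared peaks, peak signal was 3.12 and 2.59 in the actl6a libraries, against 6.61 and 4.74 in the control libraries, a log2 difference of −0.87 ± 0.290 (SE, adjusted p = 0.123, limma). In chr16:26065653-26095582, whose 4 peaks were all control-only, it was 1.68 and 1.55 in the actl6a libraries, against 3.68 and 3.05 in the control libraries (−0.87 ± 0.291, SE, adjusted p = 0.125, limma). These clusters had gaps near the genome mean, at 0.993 and 0.949 in the actl6a libraries and 1.09 and 1.11 in the control libraries in the cluster on chromosome 3, and at 0.930 and 0.891 against 0.901 and 0.867 in that on chromosome 16.

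In chr24:19912709-19932653, with 4 control-only and 1 shared peak, peak signal was 1.78 and 1.63 in the actl6a libraries, against 3.43 and 3.49 in the control libraries (−0.85 ± 0.289, SE, adjusted p = 0.128, limma). The remaining clusters of this kind were chr10:1217237-1234322 (−0.84) and chr3:5227228-5244425 (−0.81). Every peak of all 5 had the lower mean in the actl6a group, and their log2 differences in the gaps lay between −0.16 and 0.03. In 3 of the 5, those at chr3:14092120-14103780, chr24:19912709-19932653 and chr10:1217237-1234322, gap signal was lower without overlap too, by log2 differences of −0.12, −0.12 and −0.16. The gap differences of the 3 largest positive clusters were larger, at 0.39, 0.58 and 0.44. These clusters were picked at the ends of the distribution and include peaks found in a single list, so the values are a description of 10 clusters.

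The brightest peak of a cluster did not hold most of its signal. It held a median of 38.3% and 37.2% of the peak signal in the actl6a libraries, against 39.2% and 37.7% in the control libraries, with overlap between the groups. Over the 752 clusters without high gap signal, the log2 peak signal of the libraries correlated at r = 0.842 within the actl6a group, 0.886 within the control group and 0.766 to 0.831 between groups. Gap signal correlated at 0.852 within the actl6a group, 0.881 within the control group and 0.809 to 0.846 between groups. These are descriptions across clusters, which share their libraries, and the base composition of the clusters was not measured.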

How the data were processed

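ATAC-seq libraries of 4 samples, 2 per group, were put into groups by their labelled treatment. Per the submitters' processing notes, FastQC, Trim Galore, Bowtie2, deepTools and MACS2 were named with the build GRCz11. Their settings, read filters and any shift of reads for the transposase are not given in the sources used here. The authors deposited 1 coverage track per library (signal per 50 bp bin) and 1 peak list per group without scores. Low track values were whole multiples of a library step, from which depth was inferred. Intervals from counting were not computed, since the reads need not be independent molecules.

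Tracks were divided by their mean over chromosomes 1 to 25. Peak, gap and flank signal are length-weighted means. Chains were compared with limma 3.58.1 (R 4.3.3, lmFit and trended eBayes) on log2(signal + 0.5), two-sided, with Benjamini-Hochberg adjustment over all chains of a fit, 2 residual and 20.3 prior degrees of freedom for peaks. This scale understates differences at low signal. Medians and shares over libraries had two-sided exact permutation tests. The rest was done in Python 3.11.15 with scipy 1.17.1, matplotlib 3.10.9, pandas 2.3.3 and numpy 2.4.6. Fits were first tested on simulated data. Coordinates are GRCz11, counted from 1.

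The clusters, the lists and the tests were chosen with earlier results of these data known. Named are the 10 clusters with the most peaks and, among clusters whose groups did not overlap in peak signal, the 5 largest differences each way. Clusters with the highest gap signal were added after their values were seen. Genes, motifs and sequences in clusters were planned and not analysed here.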

Additional observations from a re-analysis of the deposited data

How the results depend on the processing

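No cluster was called in peaks, gaps or contrast with a pseudocount of 0.1 or without a trend. Of all 20152 chains, 73 were called in peaks without a trend. A pseudocount of 2 called no cluster in peaks or gaps. In the contrast it called 1 of 783 clusters (chr16:26065653-26095582) and 151 of 5683 chains. Without gap bases within 1000 bp of a peak, the contrast called 1 of 774 clusters (chr19:19454910-19463652) and 171 of 4657 chains. Leaving out each library in turn gave 0 to 1 called clusters in the contrast and a median gap difference of −0.0171 to 0.00116, the sign turning without actl6a replicate 2. Each fit without a library leaves 1 library in a group, so its number of calls does not show that the result is stable. Over all chains, some of these fits made calls in peaks and in the contrast. With all libraries, an adjusted p under 0.1 called 1 of 783 clusters in peaks (chr3:8800450-8825361, higher). Of all 20152 chains it called 419 (329 lower, 90 higher). The replicate number as a block called 31 of 783 clusters in peaks (29 lower, 2 higher), but the labels state no pairing. Of all 20152 chains it called 1144 (1013 lower, 131 higher). Differences between replicates correlated between groups at 0.186 for peaks and 0.056 for gaps over clusters. Such a correlation leaves out a shared offset: median peak signal was higher in replicate 1 in the actl6a group (2.88 against 2.39) and in the control group (3.77 against 3.21).

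The median peak difference, −0.35, was −0.0735 with libraries scaled to the median chain and −0.0407 after quantile normalization, and lay between −0.49 and −0.22 under all others. It followed the list used, with −0.46 for clusters built from the control list alone and −0.23 for the actl6a list alone. The median gap difference was −0.0158 when scaled outside peaks, −0.0198 scaled to the median chain, −0.0146 as deposited, 0.0113 without bases near peaks, 0.00039 for 3 or more peaks, −0.0194 for 6 or more, −0.0631 and 0.0101 for gaps of 5000 and 25000 bp, −0.0142 for the control list and −0.0595 for the actl6a list. It thus has no stable sign. The actl6a list alone gave a median contrast of −0.172.

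The number of clusters followed the definition, with 111 and 1748 for gaps of 5000 and 25000 bp, 1991 and 153 for 3 or more and 6 or more peaks, and 188 from the actl6a list. The excess of clusters over isolated peaks differed by 0.0137, with the opposite sign, in the control list. Under the other settings it differed by −0.286, in the actl6a list, to −0.0282. The difference of chr16:36433673-36454544 was 0.212 when scaled to the median chain. Settings without high gap signal and with shared peaks only were added after seeing the data. Groups of 2 libraries limit every library-level test.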
